A study of Mus musculus with 4 samples.

Results

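The transcription factor NF-Y is a trimer. Its NF-YB and NF-YC subunits dimerize through histone folds, and NF-YA binds that dimer and reads the CCAAT box, a promoter element. NF-Y sites are common at promoters of genes active in many cell types, cell cycle genes among them, and the factor is also known from enhancers of embryonic stem cells. Since NF-YA is recruited through the histone-fold pair, a place with mapped NF-YA and NF-YB sites and no mapped NF-YC site is an incomplete record of the textbook complex. Such places are described here. They were chosen by calls alone: an NF-YA site and an NF-YB site had to be present, and an NF-YC site absent, within 1 region. A region was a chain of sites from any of the 3 lists in which each centre lay at most 200 bp from the next. Of 5350 regions, 601 (11.2%) met this rule.

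The maps come from ChIP-seq, the sequencing of DNA recovered with an antibody from fixed chromatin. The cells were E14Tg2a, mouse embryonic stem cells of strain 129/Ola, with no other treatment named in the labels. The cells were grown in medium with serum and leukaemia inhibitory factor, used at passages 20 to 35 and fixed with 1% formaldehyde for 10 min. The 4 samples were 1 library each for NF-YA (mouse monoclonal antibody), NF-YB and NF-YC (rabbit polyclonal antibodies, per the labels) and 1 of input DNA, which is sheared chromatin sequenced without an antibody. No library had a replicate, so all values below describe these libraries and no test between samples was possible. After 1 tag (mapped read) was kept per genome position, between 11390494 (NF-YC) and 13859303 (NF-YB) tags remained per library. The NF-YC library had the fewest kept tags and NF-YA had 11479998. A called site needed a fold of at least 7 over input and at least 14 tags in the NF-YA and NF-YC lists or 15 in the NF-YB list. "No NF-YC site" therefore means that no call passed these minima, not that the protein was absent.

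The 601 regions held 602 NF-YA sites (13% of that list) and 601 NF-YB sites (21.7% of its list). They made up 25.8% of the 2325 regions with both NF-YA and NF-YB sites (exact 95% binomial interval 24.1 to 27.7, counting error over regions only). The other 1724 regions also held an NF-YC site and serve as the comparison below. The mirror class, with NF-YA and NF-YC sites and no NF-YB site, was of like size: 613 of 2337 regions (26.2%, 24.5 to 28.1).

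Regions without NF-YC had fewer tags in both other maps than regions of all 3 subunits. NF-YA tags ranged from 14 to 164 with a median of 30 (quartiles 21 and 47), against a median of 70 (42 and 113) where NF-YC was present. NF-YB tags ranged from 15 to 178 with a median of 34 (22 and 49), against 58 (35 and 95). Regions lacking NF-YB were much alike, with a median of 34 NF-YA tags (24 and 53), and regions of NF-YA alone were lower, with 21. With library depth taken into account, the medians were 2.61 NF-YA and 2.45 NF-YB tags per 1000000 kept tags, against 6.10 and 4.18 in regions of all 3 subunits. The folds over input, as the authors' caller gave them, had medians of 13.8 for NF-YA and 13.3 for NF-YB, against 28.8 and 20.4. Both ranges overlapped those of the 3-subunit regions, which began at the same 14 and 15 tags and reached 312 and 351. Under 30 tags in both lists were found in 192 of the 601 regions (31.9%) but in 120 of the 1724 with NF-YC (6.96%). At the other end, 74 of the 601 (12.3%) and 851 of the 1724 (49.4%) had 50 or more tags in both.

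**Figure D1:**
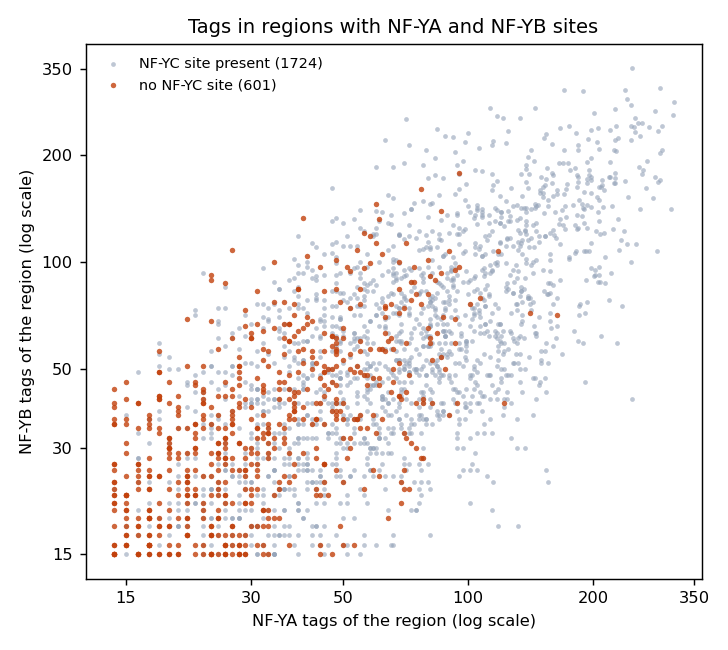
Tags of the NF-YA site (x axis) and of the NF-YB site (y axis) in the 2325 regions that held both, on log scales; each point is 1 region. The 601 regions without an NF-YC site lie toward the low ends of both axes, with medians of 30 and 34 tags against 70 and 58.

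The share of regions without NF-YC fell steeply with the tags of the other subunits, and more steeply with NF-YA. Where the NF-YA site had 14 to 19 tags, 125 of 166 regions lacked NF-YC (75.3%, 68.0 to 81.7), against the 25.8% over all regions with both sites. That share was 52.0% at 20 to 29 NF-YA tags, 36.2% at 30 to 39 and 29% at 40 to 49. It was 20.7% at 50 to 69 tags, 12.3% at 70 to 99, and only 6 of 544 regions (1.10%, 0.406 to 2.39) with 100 or more NF-YA tags lacked NF-YC. By NF-YB tags the shares ran from 117 of 226 (51.8%, 45.0 to 58.4) at 15 to 19 tags to 20 of 420 (4.76%, 2.93 to 7.26) at 100 or more.

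**Figure D2:**
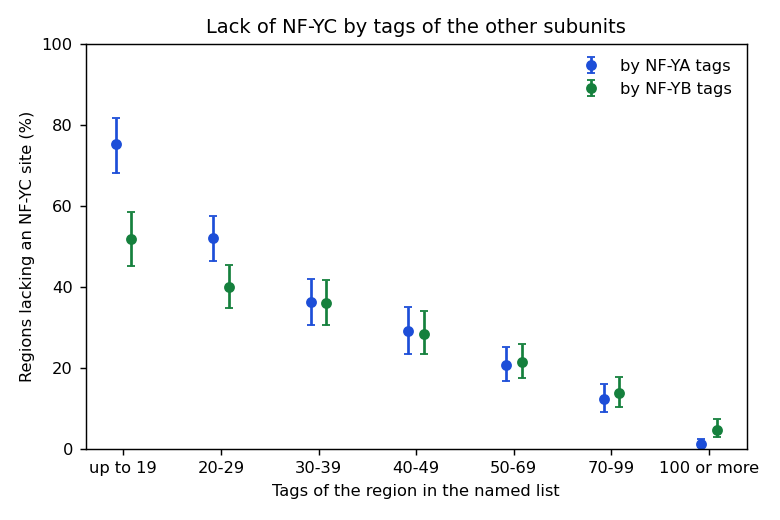
Share of regions with NF-YA and NF-YB sites that lacked an NF-YC site (y axis, %) in classes of NF-YA tags or of NF-YB tags (x axis); bars are exact 95% binomial intervals over regions. The share ran from 75.3% to 1.10% by NF-YA tags and from 51.8% to 4.76% by NF-YB tags.

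With both lists considered together, the share differed mainly between levels of NF-YA. At 14 to 29 NF-YA tags, NF-YC was missing from 61.5% of 312 regions with 15 to 29 NF-YB tags and from 58.0% of 169 regions with 30 to 69 NF-YB tags. At 30 to 69 NF-YA tags these shares were 26.5% of 226 and 32.0% of 488, and the exact intervals overlapped in each case (55.9 to 67 with 50.2 to 65.5, and 20.9 to 32.8 with 27.8 to 36.3). The share was lower, 19.3% of 192 regions (13.9 to 25.6), once NF-YB had 70 or more tags. With 70 or more tags in both lists, 25 of 559 regions lacked NF-YC (4.47%, 2.91 to 6.53). Viewed from the other side, NF-YB tags differed little between regions with and without NF-YC in the NF-YA classes below 100 tags. Among regions with 50 to 69 NF-YA tags the median NF-YB site had 50 tags without NF-YC and 50.5 with it. At 100 or more NF-YA tags it had 74 tags without NF-YC (6 regions) and 105.5 with it. When NF-YB was matched instead, NF-YA differed: at 50 to 69 NF-YB tags the median NF-YA site had 45 tags without NF-YC and 75 with it.

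NF-YB stood relatively higher against NF-YA in the regions without NF-YC as a group. The log2 ratio of NF-YB to NF-YA tags, each per 1000000 kept tags, had a median of -0.18 (range -2.02 to 1.73), against -0.53 in the 3-subunit regions. NF-YB was above NF-YA on this scale in 230 of the 601 (38.3%) and in 424 of the 1724 (24.6%). A ratio past 2-fold in favour of NF-YB was found in 27 of the 601 (4.49%, 2.98 to 6.47), beside 3.05% of all 2325 regions. A ratio past 2-fold in favour of NF-YA was found in 74 (12.3%, 9.79 to 15.2), beside 23.6% of all. Matched on NF-YA tags, the medians without and with NF-YC lay close together, at -0.46 and -0.48 for 50 to 69 tags and at -0.69 and -0.70 for 70 to 99. At the ends of the NF-YA range the regions without NF-YC stood lower, with 0.25 against 0.43 at 14 to 19 tags and -0.98 (6 regions) against -0.76 at 100 or more. In the NF-YA classes between, they stood slightly higher. Matched on NF-YB tags instead, they stood higher in every class. The medians were 0.10 against -0.63 at 50 to 69 NF-YB tags and 0.12 against -0.25 at 70 to 99. Antibodies can differ in efficiency, so the sign of a ratio in 1 region says nothing of the amounts of both proteins. Across the 601 regions NF-YA and NF-YB tags rose together (Spearman's rho 0.58 over the regions, against 0.66 over the 1724, as a description of regions that share libraries, cells and the caller's minima).

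The level of input DNA moved with the lack of NF-YC as well. The number of input tags behind a site could be worked back from its tags and fold in 556 of the 601 regions for NF-YA and 572 for NF-YB. At the NF-YA site it was not recovered in 7.49% of the 601 and in 4.29% of the 1724 regions with NF-YC. At the NF-YB site these shares were 4.83% and 3.02%. Regions without a recovered count are left out of the shares by input. All 3 lists were called against the same input library, and where both counts were recovered they were equal in 330 of 531 regions. Over all tag levels together, input hardly separated the classes: the median was 3 input tags with and without NF-YC. At a given NF-YA level it did. Among regions with 50 to 69 NF-YA tags, NF-YC was missing from 2 of 62 with 1 input tag (3.23%, 0.393 to 11.2), from 15 of 58 with 4 input tags (25.9%, 15.3 to 39) and from 15 of 24 with 7 or more (62.5%, 40.6 to 81.2). In the same class the median input was 5 tags without NF-YC and 3 with it. At 70 to 99 NF-YA tags the shares were 1 of 45 (2.22%, 0.0562 to 11.8) with 1 input tag and 14 of 46 (30.4%, 17.7 to 45.8) with 7 or more. With input and tags taken from the NF-YB list instead, the contrast was smaller: at 50 to 69 NF-YB tags the share was 14.6% with 1 input tag and 39.1% with 7 or more. At 14 to 19 NF-YA tags the shares were high at each input level: 52 of 66 (78.8%) with 1 input tag and 11 of 16 (68.8%, 41.3 to 89) with 3 at the NF-YA site. By input at the NF-YB site, they were 57 of 77 (74.0%) with 1 input tag and 12 of 14 (85.7%, 57.2 to 98.2) with 3.

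**Figure D3:**
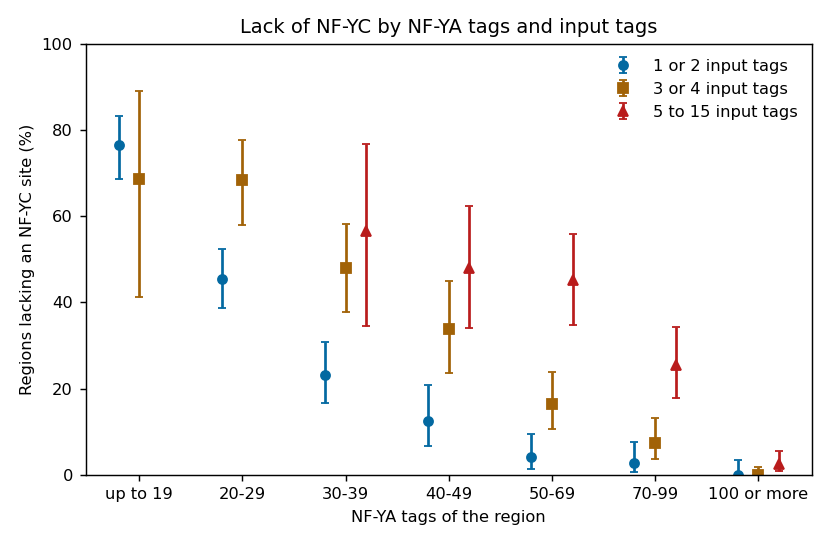
Share of regions with NF-YA and NF-YB sites that lacked an NF-YC site (y axis, %), by NF-YA tags (x axis) and by the input tags recovered at the NF-YA site (colours and shapes); bars are exact 95% binomial intervals over regions. At 50 to 69 NF-YA tags the share was 4.2% with 1 or 2 input tags, 16.5% with 3 or 4 and 45.2% with 5 to 15.

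The required fold of 7 sets how many tags an NF-YC site needed at a given input. With 1 or 2 input tags, 14 tags sufficed, while 18 were needed with 3 input tags, 29 with 5 and 41 with 7. The lowest tag counts present in the NF-YC list at these input levels were the same numbers, and a list cut at these minima cannot hold lower ones. These numbers hold for the input counted at an NF-YC site itself. Input at the NF-YA site stands for it only roughly, since counts at neighbouring sites often differ and the stretch over which the caller counted input is not known here. At 50 to 69 NF-YA tags, 3-subunit regions with 5 to 15 input tags at the NF-YA site had NF-YC sites of as few as 19 tags. Taken as an approximation, the input at the NF-YA site would have asked a median of 29 NF-YC tags of the regions without NF-YC in that class, against 18 of the 3-subunit regions. Those 3-subunit regions had a median of 37 NF-YC tags and a lower quartile of 29. The NF-YC tags that the regions without a call did hold were not analysed here, so the part of the input in each missing call was not tested. Regions without NF-YB moved the same way: at 50 to 69 NF-YA tags, NF-YB was missing from 2 of 62 regions with 1 input tag and from 11 of 20 with 7 or more.

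Regions strong in both maps over low input at the NF-YA site all had an NF-YC site. With 50 or more tags in both lists and 1 or 2 input tags at the NF-YA site, none of 205 regions lacked NF-YC, which allows a share of up to 1.46% by the limit of 3 counts and 1.78% by the exact interval. The share was 12 of 325 (3.69%, 1.92 to 6.36) with 3 or 4 input tags and 57 of 362 (15.7%, 12.1 to 19.9) with 5 to 15. With input taken from the NF-YB site, 1 of 217 regions of 1 or 2 input tags lacked NF-YC. It lay at chr15:78385611-78385671 (mm9) with 52 NF-YA and 74 NF-YB tags. The 74 regions with 50 or more tags in both lists and no NF-YC site had a median of 6 input tags at the NF-YA site (range 3 to 11, 69 recovered), against 4 (1 to 15) where NF-YC was present. Their median NF-YA fold was 13.9 and the highest 35.2, against a median of 36.0 with NF-YC. The opposite end was unlike this. Where both sites had under 30 tags, the median was 2 input tags at the NF-YA site with and without NF-YC, and 61.5% of regions lacked it. The NF-YC sites of the 3-subunit regions in that class had a median of 20 tags, near the minimum of 14.

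Some regions without NF-YC had a strong site over low input, in sets picked after their values were seen. The NF-YA set and the NF-YB set were each chosen by the tags of 1 map. Since none of the 205 regions above lacked NF-YC, NF-YB tags in the NF-YA set could only be below 50. NF-YA had 50 or more tags over 1 or 2 input tags in 8 of the 601 regions, which is 2.36% of the 339 such regions with both sites (1.02 to 4.60), and NF-YB there had a median of 26 tags (21 to 40). The region with most NF-YA tags of these was at chr14:32454131-32454271, with 94 NF-YA and 40 NF-YB tags. NF-YB had 50 or more tags over 1 or 2 input tags in 19 regions, 6.09% of 312 (3.71 to 9.35), and NF-YA there had a median of 33 tags (21 to 52). Among these, the region at chr4:130451451-130451511 had 100 NF-YB and 34 NF-YA tags, with folds of 99.3 and 40.8 over 1 recovered input tag. A fold of 25 or more in both lists was reached by 35 of the 601 regions, 5.86% of the 597 regions that reached it (4.12 to 8.06).

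The regions ranking highest by the mean of their NF-YA and NF-YB ranks are given next, with their input. First came chr15:81756671-81756751 (build mm9, like all positions here), with 95 NF-YA tags and 178 NF-YB tags. Its 178 tags placed it 94th in the NF-YB list, the best rank of any of the 601 in either list, and its nearest NF-YC site was 54300 bp away. The region at chr10:40022051-40022131 followed with 118 NF-YA and 107 NF-YB tags, and 6 input tags at both sites. The most NF-YA tags of all, 164, were at chr19:43749471-43749571. That region had 71 NF-YB tags and 11 input tags at its NF-YA site, the most of any of the 556 with a recovered value.

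Next were chr19:7067091-7067131 (86 NF-YA and 139 NF-YB tags) and chr12:104626791-104626831 (141 and 72 tags). At both of these the NF-YA and NF-YB centres coincided. The region at chr7:4704671-4704731 had 77 and 160 tags over 8 and 9 input tags, and chr4:115893751-115893851 had 95 and 97 tags. Then came chr15:88649871-88649971 (90 and 107 tags) and chr4:41707291-41707351 (93 and 95 tags). The tenth, at chr15:80541131-80541371, had 107 and 79 tags and lay 310 bp from the NF-YC site of a neighbouring 3-subunit region. Input tags at the NF-YA site ranged from 5 to 11 over the 9 of these 10 regions in which they were recovered, above the median of 3 over the 556 with a recovered value. NF-YA tags and input tags rose together over those 556 (Spearman's rho 0.69), so a choice by tags tends to pick regions of high input. Without a matching mm9 annotation, no gene is assigned to these positions.

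At the extremes of the NF-YB to NF-YA ratio, a site of moderate or high tag count in 1 map met one of far fewer tags in the other. The ratio was highest at chr10:94847231-94847391, where 27 NF-YA tags stood beside 108 NF-YB tags (log2 1.73). The following regions were at chr4:144861751-144861831 (24 and 92 tags), chr4:137295271-137295371 (24 and 89), chr10:42568991-42569191 (26 and 87) and chr7:26645051-26645251 (40 and 133). In all 5 the NF-YA count was below the 47 tags of the upper quartile. The ratio was lowest at chr4:106323491-106323631, with 64 NF-YA and 19 NF-YB tags (log2 -2.02). After it came chr7:100022771-100022931 (53 and 16), chr9:103083511-103083591 (69 and 21), chr19:42119891-42120031 (47 and 15) and chr4:154998811-154998971 (72 and 23). The NF-YB site of these 5 was close to the minimum of 15 tags, between 15 and 23.

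NF-YA and NF-YB centres lay close together whether or not NF-YC was called. The median distance between them was 30 bp in the 601 regions (quartiles 10 and 50) and 20 bp in the 3-subunit regions (10 and 40). Distances within 50 bp were found in 79.0% (75.6 to 82.2) and 84.3% (82.5 to 86.0). The caller scanned the genome in windows of 20 bp, so these medians differ by less than 1 window. In each class of NF-YA tags from 14 to 49, both medians were 30 bp. The sites themselves were slightly wider without NF-YC: 24.5% of NF-YA sites (21.1 to 28.1) exceeded 100 bp, against 14.5% (12.9 to 16.3). Matched on NF-YA tags, the median NF-YA width was equal in every class, at 80 bp for 14 to 19 tags, 60 bp for 20 to 69 tags and 40 bp above.

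**Figure D4:**
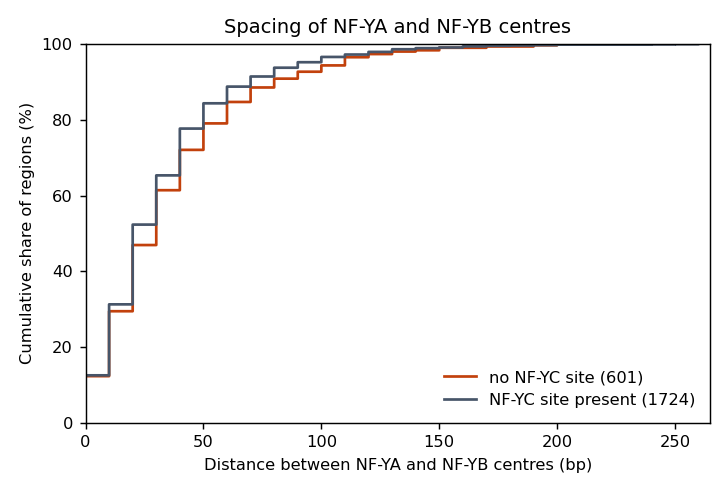
Cumulative share of regions (y axis, %) by the distance between the closest NF-YA and NF-YB centres (x axis, bp), for regions without and with an NF-YC site. The curves run close together, with 79.0% and 84.3% of regions within 50 bp.

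Few of the 601 regions depended on the 200 bp limit. NF-YA and NF-YB centres were over 150 bp apart in 6 of them, and the widest spacings were 200 bp at chr17:35302031-35302431 and at chr18:38409891-38410271. A spacing of 190 bp followed at chr13:112515571-112515991. On the NF-YC side, none of the 601 had an NF-YC centre between 200 and 260 bp away, and 4 had one within 300 bp. In the 1724 regions with NF-YC, its centre was over 150 bp from the nearest other centre in 2 and at most 190 bp away. The closest NF-YC site outside a region was 260 bp from the region at chr19:8893991-8894451 (34 NF-YA and 77 NF-YB tags), with 58 NF-YC tags. At 270 bp, the region at chr9:13631511-13631551 (71 and 32 tags) faced an NF-YC site 540 bp wide from 13631531 to 13632071, with 81 tags. Its own interval met that site, the single such case among the 601, so its lack of NF-YC rests on the use of centres. The third was 280 bp away, at chr4:129317911-129318091 (43 and 36 tags), with 42 NF-YC tags. A single region held more than 1 site of a list, at chr9:108727151-108727591, where 2 NF-YA sites shared the region with an NF-YB site 440 bp wide.

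Most regions without NF-YC were far from any NF-YC site, and 3-subunit regions were about as far from the next one. The nearest one outside the region lay at a median distance of 114850 bp, and 17 regions (2.83%, 1.66 to 4.49) had one within 1000 bp. For the 3-subunit regions, the next NF-YC site lay at a median distance of 107760 bp and was within 1000 bp in 49 (2.84%, 2.11 to 3.74). Another NF-Y region of any class lay within 10000 bp of 104 of the 601 (17.3%, 14.4 to 20.6), beside 18.3% (16.5 to 20.2) of the 3-subunit regions. The nearest of these neighbours was a 3-subunit region in 47 cases, an NF-YA-only region in 24, a region of NF-YA and NF-YC in 11 and another region without NF-YC in 10. For the 316 3-subunit regions with such a neighbour, these classes numbered 94, 100, 32 and 46 in the same order. At both distances the intervals of the share with a site or region nearby overlapped between the 2 classes. The class of the neighbour was not tested.

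All chromosomes carried regions without NF-YC, in shares that mostly lay near the overall 25.8%. Chromosome Y held 2 regions with both sites, 1 of them without NF-YC. Among the other chromosomes the share was highest on chromosome 13, with 32 of 84 regions (38.1%, 27.7 to 49.3), and on the X chromosome, with 18 of 50 (36.0%, 22.9 to 50.8). It was lowest on chromosome 2, with 29 of 160 (18.1%, 12.5 to 25). Only the intervals of chromosomes 2 and 13 did not reach the overall share, among 21 chromosomes viewed, and no test was made. On the X chromosome the regions with NF-YA and NF-YB sites had a median of 38 NF-YA tags, below the 40 to 68 of the autosomes, and no region without NF-YC had more than 53. Mouse chromosome 13 carries the largest cluster of replication-dependent histone genes, a known group of NF-Y targets. A stretch with many NF-Y regions, whose limits were set with the sites in view and whose outer regions begin at 21809331 and end at 24026231, held 8 of the 32 regions without NF-YC on chromosome 13. They had 32 to 68 NF-YA tags and 38 to 146 NF-YB tags over a median of 5 input tags, against 2 input tags in the 18 regions with NF-YC there. The share was 8 of 26 (30.8%, 14.3 to 51.8) inside this stretch and 24 of 58 (41.4%, 28.6 to 55.1) on the rest of the chromosome, and the intervals overlapped. The part of this stretch in the share of chromosome 13 was not tested.

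**Figure D5:**
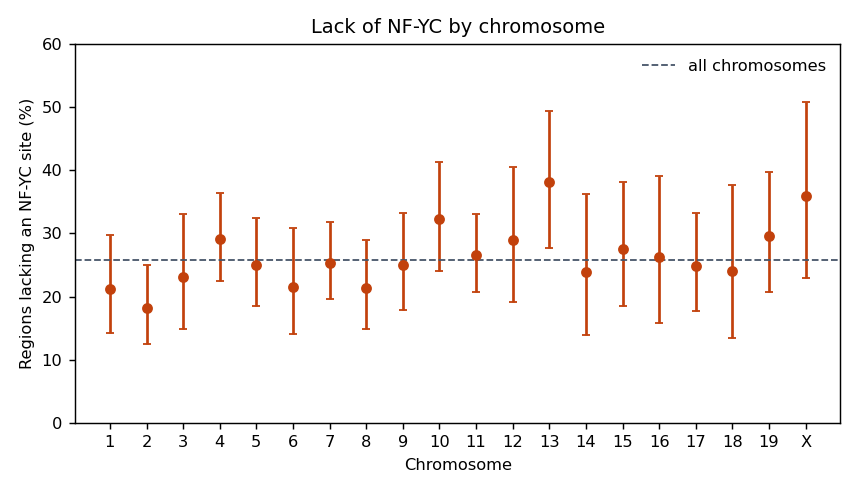
Share of regions with NF-YA and NF-YB sites that lacked an NF-YC site (y axis, %) on each chromosome (x axis; chromosome Y, with 2 such regions, is not drawn); bars are exact 95% binomial intervals and the dashed line is the share over all chromosomes, 25.8%. Chromosome 13 is highest at 38.1% and chromosome 2 lowest at 18.1%.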

How the data were processed

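Per the submitters' processing notes, Bowtie and the genome build mm9 were used for the reads; the Bowtie version is not stated there. The authors called sites in each library with SISSRs 1.4 against 1 input library of 13767116 tags, per the file headers (e-value 10, p-value 0.001). Each deposited list gives whole tag counts, the fold (a ratio of site tags to scaled input tags) and the p-value of a site; the deposited p-value was used for nothing here. The lists do not say if their first base is numbered 0 or 1, and positions are printed as deposited.

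From these lists, regions were formed as described in the report, and the site of most tags stood for a list in a region. Input tags were the whole number that, multiplied by the ratio of kept tags to input tags (0.834, 1.01 and 0.827), gave back the deposited fold within 0.0051; at least 1 was assumed, so 0 cannot be told from 1. The recovery succeeded for 92.5% of NF-YA and 96.7% of NF-YB sites. Intervals are exact (Clopper-Pearson, 95%) over regions and cover counting error only. Functions were tested on simulated lists. Python 3.11.15, numpy 2.4.6, pandas 2.3.3, scipy 1.17.1 and matplotlib 3.10.9 were used.

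Named regions were the 10 of best mean rank, the 5 highest and 5 lowest ratios, the 3 widest spacings, the 3 with the closest NF-YC site and any with several sites of a list. The members and lists were chosen with earlier results of these data known, and the input classes after the values were seen. The reference tables at hand use another genome build, so gene position and CCAAT sequence were not analysed here. The expression arrays of the design text were not analysed here either.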

Additional observations from a re-analysis of the deposited data

How the results depend on the processing

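Of 54 alternative values, 44 stayed within their bounds (1.5 times for a count, the 95% interval for a share or median). The median log2 ratio, the only result that could change sign, did not do so in any setting. Joining within 100 or 500 bp, requiring overlapping intervals, or leaving out chromosome Y moved no value beyond these bounds; the regions without NF-YC then numbered 582 to 600. Asking for no NF-YC site within 500 or 1000 bp left 590 and 584. With at least 20 tags in every list, the medians rose to 37 NF-YA and 40 NF-YB tags, and with a fold of at least 10 to 38 and 42. Both settings remove weak NF-YA and NF-YB sites. They cut the NF-YC list as well, so regions that lost a weak NF-YC site could join those without NF-YC. These then numbered 526 with the tag minimum and 499 with the fold minimum. The part of either change in the medians was not tested. The share lacking NF-YC was 28.4% with a fold of at least 10 and 27.7% without sites wider than 200 bp. The cause was not tested. With NF-YA and NF-YB sites of at least 30 tags and the whole NF-YC list, 241 regions remained, 15.4% of those with both. The median log2 ratio of deposited folds was -0.091. Chosen after seeing the data, classes of 50 to 69 NF-YB tags gave shares of 14.6% with 1 input tag and 39.1% with 7 or more. No paired analysis was possible because there was a single library of each kind, so no replicate could be left out either. The settings for genes and CCAAT were not run for want of mm9 sequence.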
